A study of Mus musculus with 144 samples.

Results

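Polysomal RNA is the messenger RNA that sediments with several ribosomes at once, so its composition describes which transcripts are being translated in a tissue. The comparison described here set polysomal RNA of mouse liver at ZT10 against polysomal RNA at ZT22, with 6 libraries at each time out of 144 libraries in the series. ZT (zeitgeber time) counts hours from lights on under 12 h light and 12 h dark, so ZT10 lies in the light phase and ZT22 in the dark phase. The members were chosen by their titles, which name the fraction, the replicate number and the time, and no measured value entered the choice. All 12 libraries came from wild-type male C57BL/6J mice with food always available. Frozen liver had been crushed in a buffer holding cycloheximide, which stalls ribosomes on their mRNA, and the polysomes had been separated by ultracentrifugation on a sucrose gradient. The labels give no ages and do not say whether animals were pooled, or whether the polysomal, nuclear and total RNA of the same replicate number came from the same mice. The p-values below therefore measure the spread between these libraries. Libraries were made with QuantSeq, a 3′ mRNA method that reads the end of each transcript beside its poly(A) tail.

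The mammalian circadian clock is a feedback loop of transcription. The activators BMAL1 (gene Arntl) and CLOCK bind E-boxes and drive the genes of their own repressors, the PER and CRY proteins. In another loop the nuclear receptors REV-ERB (Nr1d1 and Nr1d2) repress, and ROR proteins activate, Arntl through elements called ROREs. A further arm runs through the PAR bZIP factors DBP, TEF and HLF, which activate genes with a D-box, and through NFIL3, which represses them. In liver these factors pass a daily rhythm to genes of lipid, sugar, heme and drug metabolism, on top of the signals of feeding and fasting.

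The depth, as the summed gene counts of a library, ran from 3895420 to 7593868 at ZT10 and from 2837663 to 13068044 at ZT22. Hepatocyte markers were abundant in every library (albumin mRNA at 14349 to 34249 counts per 1000000, CPM), and 0 of 5 hepatocyte markers changed. A transcript that overlaps the ribosomal RNA locus, Gm42418, took 1.48% to 23.4% of the counts. Replicate 1 stood apart in both groups. The lung secretoglobin Scgb1a1 reached 29.9 CPM at ZT10 and 318 CPM at ZT22 in replicate 1 and stayed at or below 0.457 CPM in the other 10 libraries. In the same 2 libraries Ppp1ca, a phosphatase subunit, was at 2.72 and 2.82 CPM, against 117 to 278 CPM elsewhere. The summed pancreas markers reached 552 CPM in replicate 3 at ZT10 and 53.7 CPM in replicate 3 at ZT22, against at most 9.73 CPM in the other libraries. Replicates 1 to 3 also separated from replicates 4 to 6 at each time on the second principal component.

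Among 10728 genes that reached a mean count of 10 per library, 103 (0.96%) differed between the times at an adjusted p under 0.05, and these are the genes written as called, risen or fallen below. At ZT10 48 genes (0.447%) were higher, and at ZT22 55 (0.513%). The change was at least 2-fold in 95 of the 103. The median log2 change over all tested genes, ZT10 minus ZT22 throughout, was 0.00437. At an unadjusted p under 0.05 there were 907 genes. In 149 genes (1.39%) the CPM of the groups did not overlap, 90 of them (0.839%) higher at ZT10 and 59 (0.55%) at ZT22. With the replicate number as a block the count was 197 (1.84%), 89 (0.83%) higher at ZT10 and 108 (1.01%) at ZT22, with 100 of the 103 among them. Without replicate 3 at ZT10 it was 67, without replicate 3 at ZT22 it was 65, and without replicate 5 at ZT22 it was 64. Replicates 1 to 3 alone gave 8 genes and replicates 4 to 6 alone gave 48. In such bulk tissue, fewer cells of a type and less RNA per cell cannot be told apart, and CPM gives a transcript's share of the polysomal pool.

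The clock activators Arntl and Clock were higher at ZT22 (background 0.513%). Arntl, which encodes BMAL1, had a lowest, median and highest level of 3.88, 9.65 and 20.05 CPM at ZT22. At ZT10 it had 5 counts over the 6 libraries, was at 0 in 4 of them and reached 0.864 CPM in the highest. The groups did not overlap, with a fitted log2 change of -5.82 (SE 0.74, adjusted p 0.000123). The pooled counts were 82.3 times higher at ZT22, with a 95% exact interval of 34.99 to 255 that covers counting error only. Clock, its partner, was at 7.78, 13.6 and 31.6 CPM (lowest, median, highest) at ZT10 and at 30.3, 38.6 and 41.6 CPM at ZT22. One ZT10 library, replicate 2, reached into the ZT22 range, with a log2 change of -1.21 (SE 0.29, adjusted p 0.0461). The call of Clock held in 2 of 12 fits that each left out 1 library, with adjusted p up to 0.123, and not without replicate 1 in both groups (0.0602). Rora, a ROR gene, had means of 134 ± 40.8 CPM at ZT10 and 125 ± 21.6 CPM at ZT22 (SD, n = 6), with a log2 change of 0.10 (adjusted p 0.969) that turned below 0 in 3 alternatives. Npas2, a paralog of Clock, had too few counts for the test. It had 0 counts at ZT10 and 109 at ZT22, where each of the 6 libraries had some, and was at least 32.6-fold higher at ZT22 against a floor of 3 counts over the ZT10 group.

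Among the clock repressors 6 of 10 were higher at ZT10 (background 0.447%) and 1 was higher at ZT22. Nr1d2, which encodes REV-ERB beta, was at 114, 132 and 164 CPM (lowest, median, highest) at ZT10 and at 6.57, 9.39 and 21.9 CPM at ZT22. The groups lay far apart, with a log2 change of 3.54 (SE 0.28, adjusted p 1.86e-07). Nr1d1, which encodes REV-ERB alpha, spread more widely, from 17.4 to 150 CPM around a median of 42.4 at ZT10 and from 0 to 8.80 CPM around a median of 1.24 at ZT22. Its groups did not overlap either (log2 change 4.66, SE 0.85, adjusted p 0.0245). With the replicate block the adjusted p of Nr1d1 was 0.0619, without replicate 1 in both groups it was 0.0633, and the call held in 6 of 12 fits that left out 1 library. Nr1d1 overlaps Thra on the opposite strand, and whether the counting used the strand is not given in the sources used here.

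The period genes differed in size of change. Per1 was at 7.11, 14.2 and 21.1 CPM (lowest, median, highest) at ZT10 and at 1.70, 2.25 and 3.17 CPM at ZT22, without overlap (log2 change 2.63, SE 0.35, adjusted p 0.000225). Per3 was at 8.47 to 18.1 CPM at ZT10 and 0.568 to 5.99 CPM at ZT22 (log2 change 2.32, SE 0.45, adjusted p 0.0123). Per2 had means of 19.9 ± 8.41 CPM and 12.3 ± 2.48 CPM (SD, n = 6), the ranges overlapped, and it was not called (log2 change 0.66, adjusted p 0.590). Cry1 was the repressor higher at ZT22. It was at 2.72, 6.59 and 17.7 CPM at ZT10 and at 27.6, 41.8 and 52.3 CPM at ZT22 (log2 change -2.45, SE 0.36, adjusted p 0.000755). Cry2 was not called (log2 change 0.60, adjusted p 0.588).

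Ciart, which encodes the BMAL1 inhibitor CHRONO, was present in all 6 ZT10 libraries, at 5.90 to 16.6 CPM. At ZT22 it had 5 counts, all in replicate 1, which was at 1.76 CPM while the other 5 libraries were at 0. It had a log2 change of 5.602 (SE 0.85, adjusted p 0.00113). Its pooled counts were 72.8 times higher at ZT10 (95% exact interval 30.9 to 226, counting error only). Bhlhe41, which encodes the E-box repressor DEC2, was at 2.63 to 10.7 CPM at ZT10 and at 0 in 3 ZT22 libraries, with 1.98 CPM in the highest (log2 change 3.51, SE 0.79, adjusted p 0.0333). That call held in 3 of 12 fits that left out 1 library and not without replicate 1 in both groups (adjusted p 0.122). Its paralog Bhlhe40 had means of 36.4 ± 8.87 CPM at ZT10 and 22.1 ± 6.65 CPM at ZT22 (SD, n = 6) and was not called (adjusted p 0.314).

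**Figure D1:**
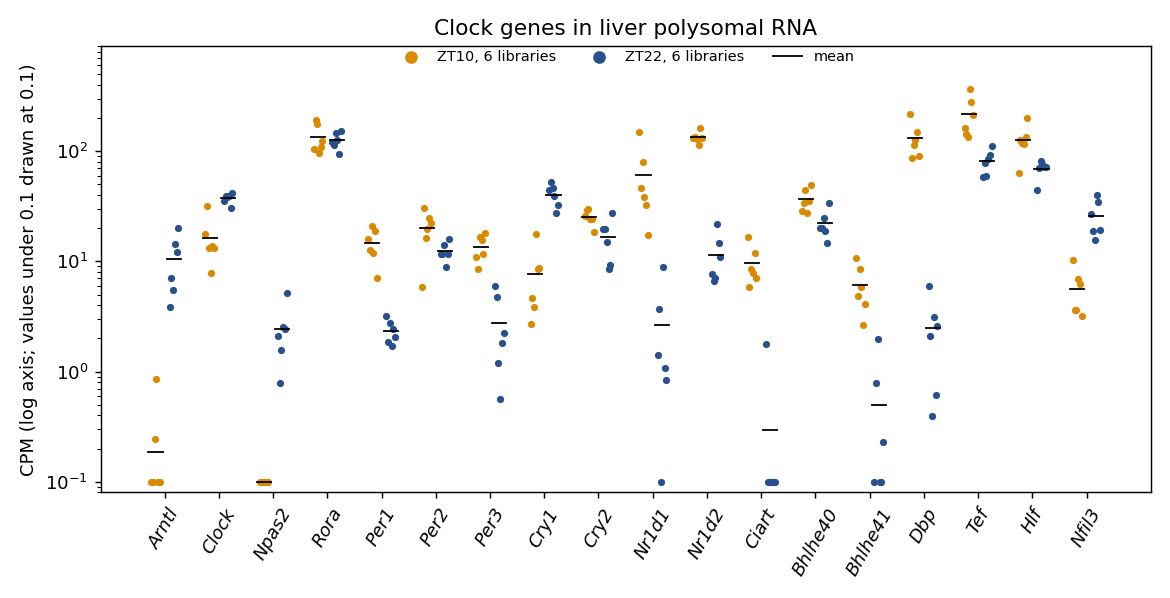
CPM of 18 clock genes in each polysomal library, on a log axis, with 6 libraries at ZT10 (orange) and 6 at ZT22 (blue), a black bar at each mean and values under 0.1 drawn at 0.1. Dbp, Nr1d2 and Per1 show separated groups, and the groups of Rora overlap throughout.

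In the D-box arm, Dbp rose more than Tef. It was at 85.7, 120 and 218 CPM (lowest, median, highest) at ZT10 and at 0.396, 2.35 and 5.99 CPM at ZT22. The log2 change was 5.82, or 56.6-fold (SE 0.46, adjusted p 9.36e-07). Tef was at 133, 187 and 366 CPM at ZT10 and at 58.1, 81.6 and 111 CPM at ZT22, again without overlap, but the change was smaller (log2 change 1.38, SE 0.25, adjusted p 0.00604). Hlf had means of 126 ± 43.0 CPM and 69.3 ± 12.8 CPM (SD, n = 6) and was not called (log2 change 0.84, adjusted p 0.151). It was called with the replicate block (adjusted p 0.0290) and without replicate 1 (adjusted p 0.0459). Nfil3, the repressor of the same element, went the other way, with 3.21, 4.91 and 10.3 CPM at ZT10 and 15.6, 23.3 and 39.7 CPM at ZT22 (log2 change -2.19, SE 0.33, adjusted p 0.000911).

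Promoters from RefSeq (GRCm38.p6), with 250 bases before and 50 after each annotated start, were searched on both strands for the elements named above. A promoter was found for 80 of the 103 called genes. The E-box CACGTG was in 10 of the 40 genes higher at ZT10 with a promoter (25%), in 4 of the 40 higher at ZT22 (10%), in 12.2% of the 7980 tested genes with a promoter and in 8.09% of all 27025 genes. The D-box TTATGNAA was in 4 of 40 (10%), 0 of 40, 2.81% and 3.99% of the same sets. The RORE (the letters A, NN, T, N and GGTCA in a row, N being any base) was in 0 of 40, 2 of 40 (5%), 2.44% and 2.87%. A match of letters is not a binding site. The following stretches, in the direction of the gene and with the match in capitals, show where the letters lie in the clock genes described above and in Ppp1r3c, described below. The Ciart stretch holds another E-box, in lower case, and the Arntl match lies after the annotated start.
Per1 E-box, chr11:69098763-69098808, plus strand: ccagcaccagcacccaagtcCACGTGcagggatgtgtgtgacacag
Per1 D-box, chr11:69098915-69098942, plus strand: gggcctggcaTTATGCAAcccgcctccc
Per3 D-box, chr4:151044796-151044843, minus strand: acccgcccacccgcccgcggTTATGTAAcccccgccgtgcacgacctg
Per3 D-box, chr4:151044843-151044890, minus strand: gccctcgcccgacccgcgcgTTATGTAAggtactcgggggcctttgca
Ciart E-box, chr3:95882261-95882306, minus strand: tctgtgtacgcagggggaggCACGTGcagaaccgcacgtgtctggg
Bhlhe41 E-box, chr6:145865548-145865593, minus strand: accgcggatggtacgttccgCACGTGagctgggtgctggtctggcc
Tef E-box, chr15:81802526-81802571, plus strand: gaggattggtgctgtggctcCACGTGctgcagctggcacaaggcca
Cry1 E-box, chr10:85185089-85185134, minus strand: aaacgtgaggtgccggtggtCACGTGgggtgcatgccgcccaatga
Ppp1r3c E-box, chr19:36736683-36736728, minus strand: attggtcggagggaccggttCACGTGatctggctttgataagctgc
Arntl RORE, chr7:113207528-113207557, plus strand: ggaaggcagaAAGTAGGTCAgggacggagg
Per1, Per3, Ciart, Bhlhe41 and Tef were higher at ZT10, while Cry1 and Ppp1r3c carry the same E-box letters and were higher at ZT22.

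The 10 largest rises at ZT10 were taken among called genes whose mean count reached 50 and whose groups did not overlap. They were Dbp, Nr1d1 and Nr1d2, described above, and 7 other genes that included enzymes and a transporter of several pathways. Of these, Usp2, Upp2 and Wee1 are in the clock output list described below. Gpcpd1, a phosphodiesterase that breaks down glycerophosphocholine, had the smallest p of all genes. It was at 65.8, 117 and 144 CPM (lowest, median, highest) at ZT10 and at 9.30, 11.3 and 15.0 CPM at ZT22, a log2 change of 3.28 (SE 0.24, adjusted p 9.70e-08). The most abundant was Upp2, a uridine phosphorylase of liver, at 401, 575 and 863 CPM at ZT10 and 65.0, 103 and 137 CPM at ZT22 (log2 change 2.59, SE 0.28, adjusted p 2.31e-05). Usp2, a ubiquitin protease and clock output gene, was at 113 to 179 CPM at ZT10 and 9.30 to 36.8 CPM at ZT22 (log2 change 2.61, SE 0.29, adjusted p 2.55e-05). Clec2h, a C-type lectin gene, was at 17.7 to 70.3 CPM against 0.789 to 4.97 CPM (log2 change 3.71, SE 0.47, adjusted p 0.000198). The fructose transporter Slc2a5 was at 12.97 to 19.5 CPM against 0.352 to 4.67 CPM (log2 change 2.71). Pcsk4, a proprotein convertase, was at 14.6 to 40.0 CPM against 2.29 to 6.96 CPM (log2 change 2.67). Wee1, the kinase that holds cells before mitosis, was at 17.2 to 49.5 CPM against 4.93 to 7.66 CPM (log2 change 2.25). Each of these 7 genes was called in all 12 fits that left out 1 library.

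Among genes higher at ZT22 the same choice left out Arntl, whose mean count was 38.7, and held Cry1 and Nfil3, described above. The largest change in it was in Cdkn1a, which encodes the cell cycle inhibitor p21. It was at 2.12, 6.48 and 14.4 CPM (lowest, median, highest) at ZT10 and at 51.1, 171 and 256 CPM at ZT22, a log2 change of -4.56 (SE 0.49, adjusted p 9.46e-05). Ppard, a fatty acid receptor of the nuclear receptor family, was at 0 in 2 ZT10 libraries and at most at 4.32 CPM, against 8.41 to 23.6 CPM at ZT22 (log2 change -3.14, SE 0.60, adjusted p 0.0125). Chka, the choline kinase that opens phosphatidylcholine synthesis, was at 1.73, 5.43 and 8.21 CPM at ZT10 and 19.98, 42.5 and 65.3 CPM at ZT22 (log2 change -3.04, SE 0.34, adjusted p 2.55e-05). Chka, which phosphorylates choline, and Gpcpd1, which releases it, had their high levels at opposite times.

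Tubb2a, a beta tubulin with close paralogs between which reads can be divided, was at 7.34 to 35.7 CPM at ZT10 and 75.5 to 221 CPM at ZT22 (log2 change -2.97, adjusted p 2.31e-05). Ppp1r3c, the subunit that brings protein phosphatase 1 to glycogen, was at 9.17 to 36.6 CPM against 114 to 178 CPM (log2 change -2.62, SE 0.29, adjusted p 2.31e-05). Lgalsl, a galectin-like gene, was at 4.68 to 14.7 CPM against 41.0 to 61.0 CPM (log2 change -2.48). St5, a regulator of Rab GTPases, was at 2.67 to 15.8 CPM against 19.7 to 44.5 CPM (log2 change -2.06). Slc30a10, the manganese exporter, was at 19.0 to 34.4 CPM against 58.2 to 134 CPM (log2 change -2.04). All 5 were called in each of the 12 fits that left out 1 library, as were Cdkn1a, Ppard and Chka.

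The 4 other times of the polysomal series place these differences in the day. Of the 48 genes higher at ZT10, 38 had their highest mean at ZT10, 6 at ZT6 and 4 at ZT14. The 55 genes higher at ZT22 were spread more widely, with 26 highest at ZT2, 20 at ZT22, 8 at ZT18 and 1 at ZT6. Dbp had means of 1.23 ± 0.947 CPM at ZT2, 37.9 ± 30.7 at ZT6, 131 ± 49.1 at ZT10, 47.0 ± 31.6 at ZT14, 4.90 ± 3.07 at ZT18 and 2.47 ± 2.04 at ZT22 (SD, n = 6 at each time). Nr1d1 was higher at ZT6 (89.2 ± 25.5 CPM) than at ZT10 (60.5 ± 48.3 CPM) by less than the SD at ZT10. Upp2 had 607 ± 204 CPM at ZT10 and 512 ± 257 CPM at ZT14, which do not differ beyond their spread. Arntl was at 12.1 ± 4.802 CPM at ZT2 and 10.5 ± 6.16 CPM at ZT22, likewise within the spread, and lowest at ZT10. Cdkn1a was at 164 ± 74.3 CPM at ZT22 and 48.4 ± 31.1 CPM at ZT2, while Chka was at 42.4 ± 16.1 CPM at ZT22 and 47.4 ± 11.8 CPM at ZT2.

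**Figure D2:**
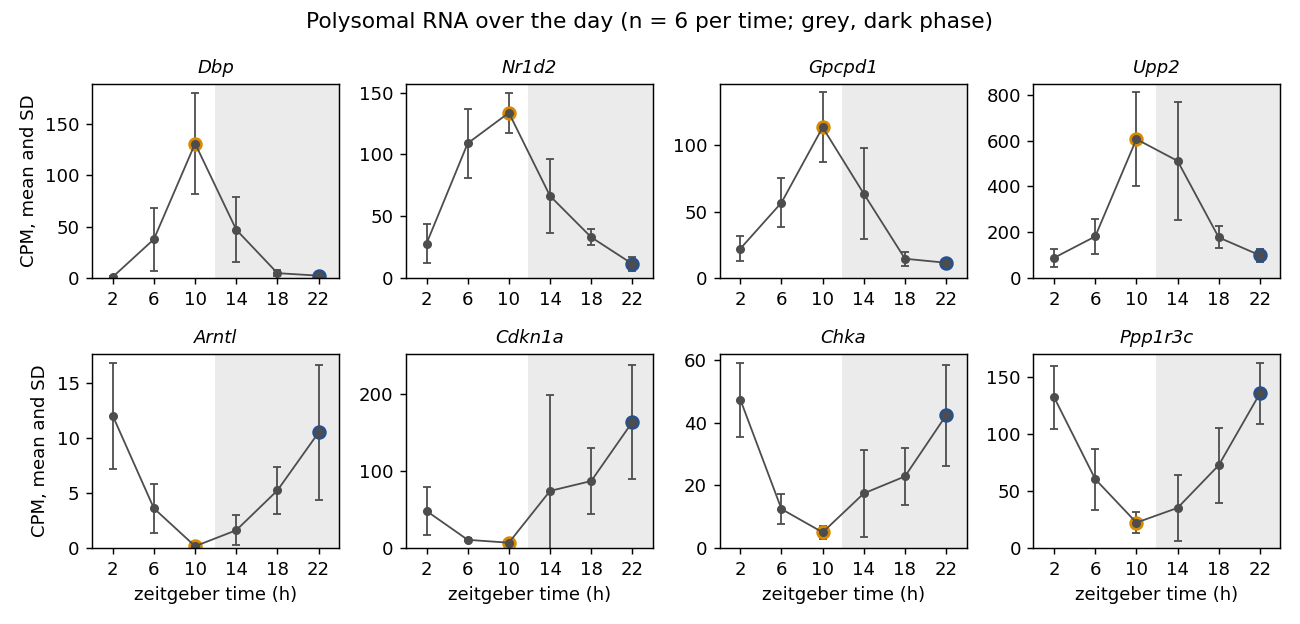
Mean CPM and SD (n = 6 at each time) of 8 genes in polysomal RNA against zeitgeber time in hours, on linear axes, with ZT10 ringed in orange, ZT22 in blue and the dark phase in grey. Dbp, Nr1d2, Gpcpd1 and Upp2 had their highest mean at ZT10, and Arntl, Cdkn1a, Chka and Ppp1r3c their lowest.

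Of 20 genes listed as clock output, 7 were higher at ZT10 and 3 at ZT22 (backgrounds 0.447% and 0.513%), with a list median of 0.74 against 0.00437 over all tested genes. Besides Usp2, Upp2 and Wee1 these were Alas1, the rate-limiting enzyme of heme synthesis (252 ± 122 CPM at ZT10, 60.9 ± 22.3 CPM at ZT22, SD, n = 6), Rgs16, a regulator of G protein signalling (32.7 ± 25.4 and 0.928 ± 1.78 CPM), Coq10b, a coenzyme Q binding protein gene (41.5 ± 16.1 and 11.8 ± 6.20 CPM), and Por, the electron donor of the cytochromes P450 (490 ± 83.4 and 257 ± 73.4 CPM). Rgs16 overlapped between the groups, since replicate 2 at ZT10 was at 3.85 CPM and replicate 4 at ZT22 at 4.54 CPM, and its call (adjusted p 0.0333) was lost without replicate 1 in both groups (0.088). The genes higher at ZT22 were Cdkn1a, Ppp1r3c and Insig2, which retains the SREBP activators of lipid synthesis in the endoplasmic reticulum (170 ± 31.0 and 634 ± 320 CPM). Elovl3, Cyp2a5 and Nr1i3 were among the 10 that were not called, with log2 changes of -2.22, 0.58 and -0.13.

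Of 22 tested PPAR alpha targets, genes of fatty acid oxidation in fasting, 2 were higher at ZT10 (background 0.447%) and 2 at ZT22 (0.513%), with a list median of -0.08. Ppara, the receptor itself, was at 229, 285 and 402 CPM (lowest, median, highest) at ZT10 and 94.4, 144 and 181 CPM at ZT22 (log2 change 1.06, SE 0.22, adjusted p 0.0173). Its call was lost without replicate 3 at ZT10 (adjusted p 0.0625) or replicate 2 at ZT22 (0.0543). Cpt1a, which admits fatty acids to mitochondria, was also higher at ZT10, at 83.8 ± 27.2 against 39.9 ± 10.9 CPM (SD, n = 6, log2 change 1.08, adjusted p 0.0363). Cyp4a14, a fatty acid hydroxylase, was at 177, 252 and 405 CPM at ZT10 and 411, 567 and 1542 CPM at ZT22 (log2 change -1.43, adjusted p 0.0245). Its call was lost with the replicate block (adjusted p 0.0789), and it held in 8 of 12 fits that left out 1 library. Acot1, an acyl-CoA thioesterase, was at 12.6 ± 5.07 and 34.6 ± 15.3 CPM (log2 change -1.46, adjusted p 0.0205), a call that held in 7 of 12 such fits. Both have close paralogs between which reads can be divided. Pdk4, a kinase that limits glucose oxidation, had 0 counts at ZT10 and 132 at ZT22, with 7.88 CPM in the highest library and a median of 0.602 CPM, at least 39.4-fold more against a floor of 3 counts over the group, and was not called (adjusted p 0.072). With Pdk4 at that bound the list median was again -0.08.

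In the glucose and glycogen list 2 of 16 were higher at ZT10 (background 0.447%) and 1, Ppp1r3c, at ZT22 (background 0.513%), with a median of 0.03. Slc2a2, the main glucose transporter of hepatocytes, was at 411, 525 and 622 CPM (lowest, median, highest) at ZT10 and 122, 233 and 421 CPM at ZT22 (log2 change 1.08, SE 0.25, adjusted p 0.0429). The ranges overlapped by 1 library each, and the call held in 4 of 12 fits that left out 1 library. Ppp1r3g, another glycogen-targeting subunit of phosphatase 1, had 131 counts at ZT10 and 2 at ZT22, a ratio of 73.1 with a 95% exact interval of 19.8 to 610 for counting error. It was at 0 in 2 of the ZT10 libraries, and its call (adjusted p 0.0363) was lost with the replicate block (0.080) and with DESeq2 (0.0983). These glycogen-targeting subunits had their higher levels at opposite times, Ppp1r3c at ZT22 and Ppp1r3g at ZT10. Pck1 and G6pc, the enzymes at either end of gluconeogenesis, were not called (log2 changes 1.13 and -0.48), but Pck1 was with the replicate block (adjusted p 0.00959).

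In the bile acid list 1 of 15 was called, against 0.96% of all tested genes. Nr1h4, which encodes the bile acid receptor FXR, was at 47.0 to 78.1 CPM at ZT10 and 24.7 to 37.9 CPM at ZT22 (log2 change 0.91, SE 0.22, adjusted p 0.0461). The call held in 2 of 12 fits that left out 1 library, with adjusted p up to 0.133, and not without replicate 1 in both groups (0.136). Cyp7a1, the rate-limiting enzyme of bile acid synthesis, had 113 ± 67.6 and 48.1 ± 26.5 CPM (SD, n = 6) and was not called (log2 change 1.24, adjusted p 0.37). Of 14 iron genes 1 was called (background 0.96%), the iron importer Slc11a2, at 10.4 to 23.7 and 30.5 to 43.4 CPM (log2 change -0.97, SE 0.23, adjusted p 0.0461), which held in 2 of 12 fits. In the glucocorticoid target list Per1 was the 1 call among 11 (background 0.96%).

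Of 16 heat shock genes 1 was called (background 0.513% for genes higher at ZT22), the small chaperone Hspb1, higher at ZT22, with 7.44 ± 3.42 CPM at ZT10 and 19.9 ± 7.74 CPM at ZT22 (SD, n = 6, log2 change -1.44, adjusted p 0.0471). It held in 3 of 12 fits that left out 1 library. The list had 13 of 16 log2 changes below 0 (5311 of 10728 over all tested genes) and a median of -0.51. Hsp90aa1 had a log2 change of -1.91 with means of 73.8 ± 25.6 and 279 ± 310 CPM and was not called (adjusted p 0.15), but was with the replicate block (adjusted p 0.0280). The cold-inducible Cirbp and Rbm3 had log2 changes of 0.78 and 0.38 and missed the threshold. Of 20 genes of folding in the endoplasmic reticulum 0 were called by edgeR, 8 had an unadjusted p under 0.05, and 17 had a log2 change below 0 (median -0.42). With the replicate block 2 of them were higher at ZT10 and 3 at ZT22. A lean below 0 was not particular to these lists. It was seen in 61 of 82 ribosomal protein genes and 61 of 79 nuclear genes of the respiratory chain, but in 4 of 15 bile acid genes.

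Without the replicate block no gene was called by edgeR in the lists of cholesterol synthesis (24 tested, median -0.25), fatty acid synthesis (14, -0.23), urea cycle and amino acid breakdown (18, -0.01), acute phase proteins (14, -0.02) or immediate early genes (9, 0.06). At an unadjusted p under 0.05 these lists had 5, 3, 1, 2 and 1 genes, against 907 of all 10728 tested genes. With the block 1 cholesterol gene, the kinase gene Pmvk, was higher at ZT22 (adjusted p 0.00344). With 0.96% of all tested genes called, lists of this length would hold few calls or none at the background share, so 0 calls say nothing particular about them. The same holds for the calls, but not for the unadjusted counts, in the lists that follow. Of 82 ribosomal protein genes none passed the test and none had an unadjusted p below 0.05, with a median of -0.19 and a range of -0.89 to 0.71. Elongation factors and other TOP mRNAs, whose translation depends on mTOR, had 0 calls among 19 (2 unadjusted) and a median of 0.02. The 77 mitochondrial ribosomal protein genes, 79 nuclear genes of the respiratory chain and 37 proteasome genes had 0 calls, with 3, 0 and 1 genes at an unadjusted p under 0.05 and medians of -0.07, -0.11 and -0.04. The summed ribosomal protein level was 4612 to 11150 CPM at ZT10 and 6078 to 15404 CPM at ZT22 (2-sided exact permutation p 0.703).

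**Figure D3:**
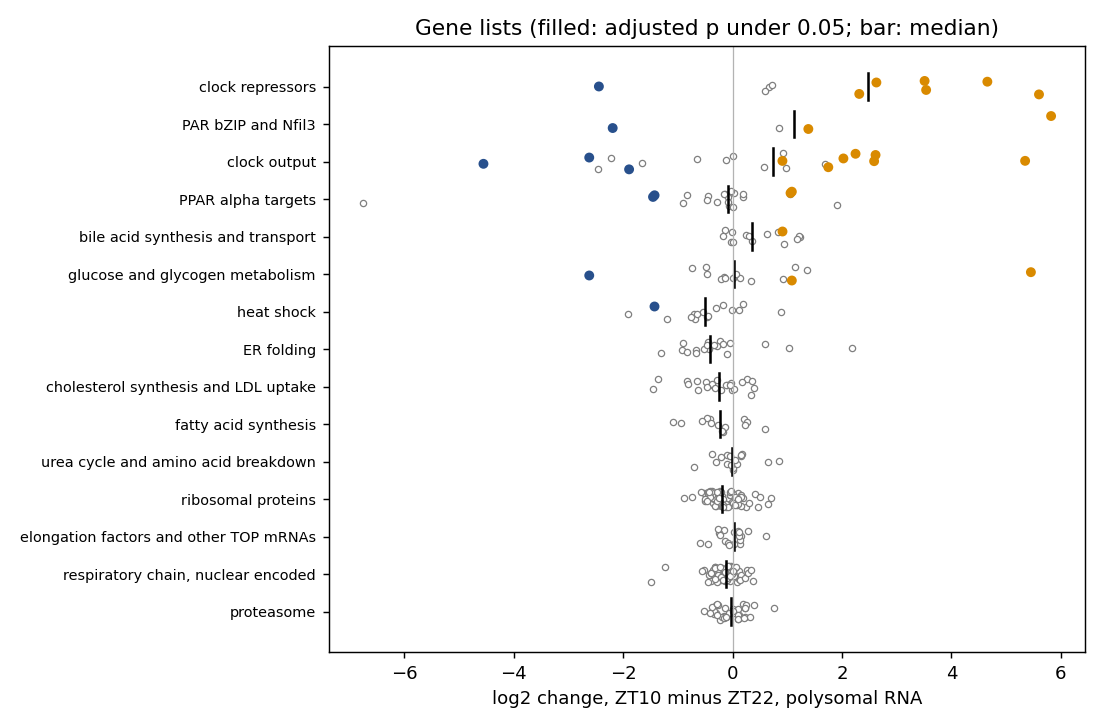
Log2 change in polysomal RNA, ZT10 minus ZT22, of each tested member of 15 lists, with filled points for called genes (orange higher at ZT10, blue higher at ZT22), open points for the others and a bar at each median. Calls lie mostly in the clock and clock output lists, and the ribosomal protein, respiratory chain and proteasome lists have none. The point at -6.76 is Pdk4, whose fitted value rests on 0 counts at ZT10.

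Of the tested markers of other cells in liver (6 Kupffer, 6 endothelial, 4 stellate, 2 cholangiocyte and 4 erythroid), 1 was called (background 0.96%). The 4 lymphocyte markers had too few counts for the test. Sox9, listed for cholangiocytes, had 10.4 ± 2.64 CPM at ZT10 and 28.1 ± 14.001 CPM at ZT22 (SD, n = 6, log2 change -1.42, adjusted p 0.0243, and 0.0533 without replicate 1 in both groups). The summed 4 cholangiocyte markers were at 10.4 to 15.99 CPM at ZT10 and 17.4 to 54.8 CPM at ZT22, without overlap. Groups did not overlap in this direction in 0.55% of all tested genes. Most of the sum was Sox9 (means of the sum 13.4 and 33.2 CPM), so it largely repeats the Sox9 call. The defining markers Krt19 and Epcam had means of at most 0.318 CPM in either group. Any part of cholangiocyte content in the other genes higher at ZT22 was not tested. The 4 pancreas and 2 lung markers tested were not called, but with the replicate block the lung marker Sftpc was higher at ZT22 (adjusted p 0.0236). Malat1 and Neat1, which stay in the nucleus, had 51.7 ± 26.3 and 5.51 ± 2.83 CPM at ZT10 and were not called (log2 changes -0.17 and -0.76, adjusted p 0.962 and 0.648).

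Total and nuclear RNA of wild-type liver at the same times, 6 libraries each, give the same contrast in the whole cell and in the nucleus. In total RNA 752 of 12048 genes (6.24%) were called, 374 (3.1%) higher at ZT10 and 378 (3.14%) at ZT22. In nuclear RNA 257 of 11186 (2.3%) were called, 110 (0.983%) and 147 (1.31%). Of the 103 polysomal genes 102 were tested in total RNA, and all 102 had a log2 change of the same sign, as did 69.7% of all 10543 genes tested in both. In both fractions 93 were called, 90.3% of the polysomal and 12.4% of the total RNA calls. In these 93 the median absolute log2 change was 1.68 in polysomal and 1.58 in total RNA. In nuclear RNA 100 were tested, 100 had the same sign (64.3% of all 9855 genes tested in both) and 69 were called, 67.0% of the polysomal and 26.8% of the nuclear calls. The standard errors were wider in polysomal RNA, with a median of 0.33 against 0.18 in total RNA over all 10543 genes tested in both. Of the 752 genes called in total RNA, 696 were tested in polysomal RNA and 674 had the same sign there.

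**Figure D4:**
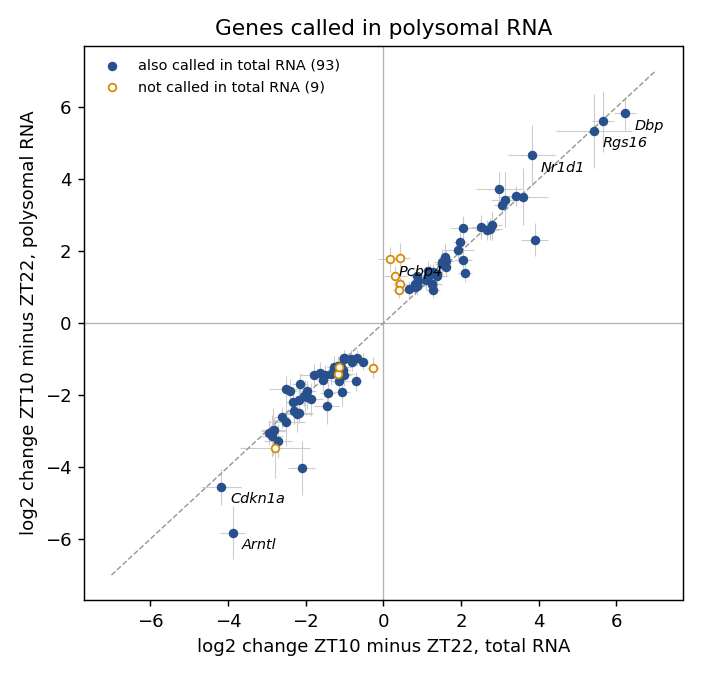
Log2 change, ZT10 minus ZT22, in polysomal RNA against total RNA for the 102 genes called in polysomal RNA and tested in both, with SE bars and a dashed line of equal change. All points lie in the lower left or upper right of the plot, and the 9 open points were not called in total RNA.

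The change between the times differed between polysomal and total RNA in 0 of 11614 genes (0%) by edgeR's interaction test (244 at an unadjusted p under 0.05, smallest adjusted p 0.285). Without replicate 3 at ZT10 it was 1 gene. Against nuclear RNA the count was 0 of 11252 (0%, 286 unadjusted, smallest adjusted p 0.789). A count of 0 does not show that the changes were alike, given SEs of such differences of 0.33 to 0.56 in the 3 genes that follow. Of the clock genes, Per3 had a log2 change of 2.32 in polysomal and of 3.89 in total RNA (difference -1.57, SE 0.56, unadjusted p 0.00929, adjusted p 0.99996). Nr1d2 differed by 0.10 (SE 0.37) and Ppp1r3c by -0.03 (SE 0.33). None of these 3 differences passed the test.

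Of the 103 polysomal calls 10 were not called in total RNA. Pcbp4, which encodes an RNA-binding protein, had 21.3 ± 5.70 CPM at ZT10 and 6.21 ± 3.27 CPM at ZT22 in polysomal RNA (SD, n = 6, log2 change 1.77, adjusted p 0.0156). Its libraries were at 12.97 to 27.9 and at 1.98 to 11.7 CPM, without overlap, while its log2 change in total RNA was 0.17 (SE 0.31, adjusted p 0.841). The difference of 1.57 (SE 0.47) had an unadjusted p of 0.00237 and an adjusted p of 0.99996. Smarca4, the ATPase of SWI/SNF chromatin remodelling, had log2 changes of -1.24 in polysomal and -0.27 in total RNA, with a difference of -1.01 (SE 0.31, unadjusted p 0.00329). Gab1 and Fgfr2, an adaptor and a receptor of growth factor signalling, had polysomal changes of 1.81 and 1.30 and total RNA changes of 0.42 and 0.31. Inca1, an inhibitor of cyclin A1 and CDK2 complexes, had 1.08 and 0.42. The rest were Cyp4a14, Nr1h4, Hist1h1c and Chrna4, with log2 changes of the same sign in total RNA, and Ppp1r3g, which had too few counts there. These 10 were named after their values were seen.

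Because QuantSeq reads transcript ends, the counts can be divided by polyadenylation site, the position where the poly(A) tail is added. Of 16701 sites that reached a mean count of 10, 75 (0.449%) were called, 41 (0.245%) higher at ZT10 and 34 (0.204%) at ZT22. Without replicate 3 at ZT22 the count was 40, and with the replicate block 113. The 70 called sites that could be given to a gene lay in 53 genes, of which 48 were called as genes. Of the 60 called genes with 2 or more tested sites, 0 had a site with the opposite sign. Dbp had 4 called sites between chr7:45709741 and 45710158, on the plus strand, all higher at ZT10. The most used, chr7:45710015-45710158, had 87.6 ± 12.3 CPM at ZT10 and 1.69 ± 1.82 CPM at ZT22 (SD, n = 6, log2 change 5.59, SE 0.51, adjusted p 7.66e-06). Gpcpd1 had called sites at both ends of a span of the minus strand, at chr2:132529080-132529122 (log2 change 2.79) and at chr2:132553982-132553998 (3.10). Cdkn1a had 2, at chr17:29099453-29099589 (log2 change -4.76) and chr17:29100603-29100729 (-4.02). Among the 5 genes with a called site that were not called as genes was Cebpb, a liver transcription factor gene, whose site at chr2:167690371-167690437 had 130 ± 27.6 CPM at ZT10 and 47.9 ± 20.1 CPM at ZT22 (adjusted p 0.0198), named after its value was seen.

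The usage of a site, meaning the percentage it holds of all site counts of the gene, does not move when the whole gene rises or falls. Usage changed in 0 of 10958 sites (0%) by edgeR's quasi-likelihood fit (281 at an unadjusted p under 0.05) and in 0 by edgeR's splicing test.

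In Slc38a4, a sodium-coupled amino acid transporter gene of liver, a pair of sites held nearly all site counts. A rise in the share of 1 site is therefore a fall in that of the other. Like those of Pnkd, these sites were named after their values were seen. The site at chr15:96994809-96995010, minus strand, held 52.1% ± 7.29 at ZT10 and 32.9% ± 5.51 at ZT22 (SD, n = 6), and the site at chr15:96996747-96997035 held 47.2% ± 7.84 and 66.5% ± 5.71. Their adjusted p was 0.412 and 0.814 without the block and 0.00687 and 0.0498 with the replicate block. The block gave 2 called sites in all, and these are the same shift seen from both sites. In total RNA the first site held 37.4% ± 6.89 and 23.5% ± 3.62. Conversely, 4 of 13388 sites (0.0299%) changed usage in total RNA, 2 higher at ZT10 (0.0149%) and 2 at ZT22 (0.0149%), with 1 of each in Pnkd, a gene of a movement disorder. The Pnkd site at chr1:74287198-74287456, plus strand, held 38.2% ± 3.69 at ZT10 and 14.8% ± 2.63 at ZT22 in total RNA (adjusted p 0.000245). In polysomal RNA it held 14.4% ± 8.595 and 7.03% ± 4.44, with 5.15% to 24.96% in the ZT10 libraries and 3.49% to 15.3% in the ZT22 libraries (adjusted p 0.9998). The gene itself was higher at ZT22, at 213 ± 34.9 against 90.1 ± 10.3 CPM (adjusted p 0.00166). A test of the polysomal against the total RNA usage change was not made.

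**Figure D5:**
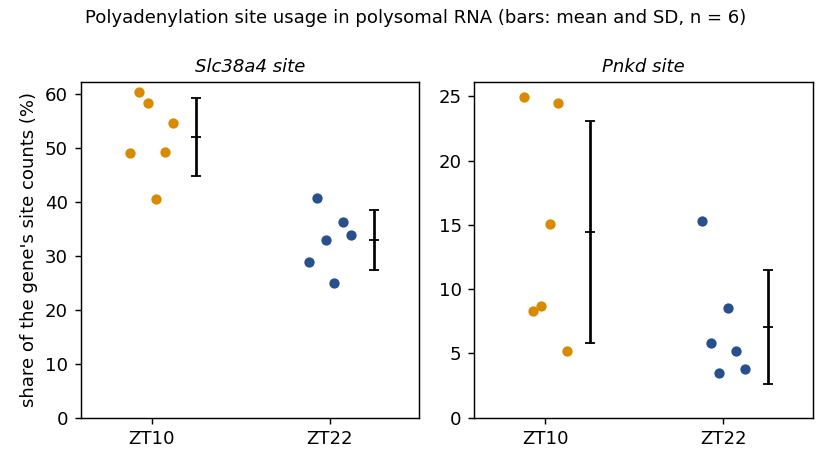
Share of the gene's site counts, in percent, at 1 site each of Slc38a4 (the site at 96994809) and Pnkd (the site at 74287198) in the 6 polysomal libraries at ZT10 (orange) and at ZT22 (blue), with mean and SD in black. The Slc38a4 groups overlap by 1 library each and the Pnkd groups overlap.

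Usage of the distal site, the one farthest along the transcript, was averaged over 3684 genes with 2 or more sites. It was 48.1% ± 2.41 at ZT10 and 47.4% ± 1.36 at ZT22 (SD, n = 6), a difference of 0.660 points (2-sided exact permutation p 0.600). The libraries ran from 45.5% to 52.1% at ZT10 and from 45.7% to 49.2% at ZT22. The highest was replicate 4 at ZT10, and without it the difference was -0.148 points.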

How the data were processed

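The authors deposited raw counts per gene symbol (51912 genes) and per polyadenylation site, 1 column per library. Per the submitters' processing notes STAR 2.4.2a, HOMER and edgeR were used with the builds mm10 and GRCm38.p5. Sites were given to genes through RefSeq GRCm38.p6, since the deposited lists name none: 26774 of 29199 sites in 9093 genes (on the gene's strand, up to 1000 bp past its end). CPM are counts per 1000000 of the library's gene counts, without further scaling. Tests were edgeR 4.0.16 quasi-likelihood fits in R 4.3.3 (robust, TMM normalization, Benjamini-Hochberg adjustment, threshold 0.05, mean count of 10 or more). Usage was fitted with the gene total as offset, for sites holding at least 5% of a gene whose mean count reached 50. Fits were tested on simulated data. Alternatives used DESeq2 1.42.0, RLE factors, other filters, fewer libraries and a replicate block.

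Same-numbered libraries of both times deviated together in all 6 pairs (correlations 0.148 to 0.376). The main fits did not treat them as pairs, and a fit with the replicate number as a block is given as an alternative. For replicates 2 and 3 a library of another number correlated better (0.191 and 0.223, against 0.148 and 0.199), and the labels do not say what a number shares. Fits are without the block unless it is named. Of 30 pairs of libraries within a group 0 were identical. Named were the clock genes, the 10 largest changes each way (mean count of 50 or more, no overlap), up to 3 called genes per list, and Malat1, Neat1 and Alb. Members and lists were chosen with earlier results of these data known. The authors' normalized tables were not used. Some items are not reported here.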

Additional observations from a re-analysis of the deposited data

Results flagged for a closer look

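Of 88 groups of gene values and a few library measures, 5 held a library far from the other 5, where chance alone gives about 1 in 20. Of these, 4 were replicate 1 at ZT22, the library with lung transcripts. It had 1542 CPM of Cyp4a14 (411 to 696 CPM in the others), 17.6 CPM of Neat1 (5.68 to 9.99) and a summed ribosomal protein level of 15404 CPM (6078 to 7631). It was low in Hlf, at 44.8 CPM against 69.7 to 81.6. Their part in each result was not tested. Without replicate 1 in both groups Hlf was called, and 102 genes were called in all, 78 of them among the 103. Replicate 6 at ZT22 had a depth of 13068044 counts, against 2837663 to 6561588.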

How the results depend on the processing

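The count of 103 genes was 100 with RLE factors, 106 with a mean of at least 1 count and 132 with the set of replicates as a factor. It was 195 with DESeq2, 160 in a fit of all 36 polysomal libraries and 197 with the replicate block. The cause was not tested. The 12 fits that each left out 1 library gave 64 to 117 genes. For sites, where the count was 75, the block gave 113 and leaving out 1 library 40 to 79. Replicates 1 to 3 alone gave 8 genes and 1 site, and replicates 4 to 6 alone 48 genes and 35 sites (fewer samples, chosen after seeing the data). Usage calls were 0, but 1 over genes of at least 200 counts, 2 with the block (the pair in Slc38a4) and 0 to 1 without 1 library. The interaction with total RNA gave 0 to 1 gene without 1 library. The distal usage difference of 0.660 points was -0.148 to 1.18 without 1 library, -0.790 in replicates 1 to 3 and 2.11 in replicates 4 to 6. The log2 change of Rora ran from -0.0618 to 0.190 without 1 library, below 0 without replicate 2 or 3 at ZT10 (-0.0618 and -0.0434), and was -0.177 in replicates 4 to 6. Of the 37 named genes called, 25 were called in every fit that left out 1 library. The block ended 3 of these calls, all given above, added Hlf and changed no other call among the 45 tested genes that the naming rule gave. Depths of 2837663 to 13068044 counts limit what can be seen in genes of few counts.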
